A study of Mus musculus with 12 samples.

Results

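Immune checkpoint receptors and the receptors that bind nectins were followed in RNA from natural killer (NK) cells sorted from mouse pancreatic tumours. The members were taken by gene symbol from a list of 10 receptors: Pdcd1 (PD-1), Ctla4, Lag3, Havcr2 (TIM-3), Tigit, Cd96, Pvrig, Cd200r1, Btla and, as the activating rival of Tigit and Cd96, Cd226 (DNAM-1). Of the 27179 genes in the count table, 9 matched a member, and Pvrig was not analysed here. All 9 passed the filter on low counts, which left 14182 genes for testing.

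The 12 libraries formed 4 groups of 3, and all mice carried a pancreatic tumour and were wild type. Control mice were labelled IgG, cGAMP mice received 10 µg of the STING agonist intravenously 4 times, anti-IL-35 mice received 200 µg of a blocking antibody against IL-35 intraperitoneally 3 times, and the combination group received both. PBS is named as the vehicle of cGAMP. Both courses began on day 8 after tumour cell injection, injections were 3 days apart, and NK cells were sorted on day 21. The strain, the age and sex of the mice, the tumour cells and the sorting gate are unknown from the sources used here. The labels do not state whether the 3 libraries per group stem from different animals. A p-value therefore reflects the variation among the sequenced libraries, which can be technical. Library totals ran from 12811353 to 22217766 assigned reads.

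Checkpoint receptors are surface proteins that, on binding a ligand on a tumour or antigen-presenting cell, recruit phosphatases or other inhibitory partners and dampen activation of T cells and NK cells. TIGIT, CD96 and CD226 share ligands of the nectin family. TIGIT and CD226 bind PVR (CD155) and nectin-2, CD96 binds PVR, and in mouse nectin-1 as well, so the inhibitory receptors compete with CD226, which activates killing. PD-1, CTLA-4 and LAG-3 are best known from activated T cells, TIM-3 is also found on NK and myeloid cells, BTLA is abundant on B cells, and CD200R1 is common on myeloid cells.

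Tigit, Cd200r1, Btla and Cd96 lie within 2.49 Mb of chromosome 16 in build mm10 (RefSeq). Tigit (gene 100043314) spans chr16:43626137-43665125 on the minus strand, Cd200r1 (gene 57781) chr16:44765736-44794977 on the plus strand, Btla (gene 208154) chr16:45223705-45252895 on the plus strand and Cd96 (gene 84544) chr16:46035652-46120248 on the minus strand. Tigit, Btla and Cd96 had lower levels in the combination group than in the IgG group, and their promoters are shown because these receptors had calls in the same direction there, each of them lost under NK receptor scaling (a scaling on 9 NK receptor transcripts). Cd200r1, which lies between Tigit and Btla, was not called in that comparison (-0.06 ± 0.17 on the log2 scale). Each sequence holds 250 bases before and 50 bases after the start given by RefSeq for GRCm38.p6, which is the sequence of mm10, read 5′ to 3′ on the strand of the gene. For Tigit and Btla this start lies inside the outermost span given above, so the windows do not begin at the outer end of the gene. The windows are chr16:43664135-43664434 (minus strand) for Tigit, chr16:45224087-45224386 (plus strand) for Btla and chr16:46120199-46120498 (minus strand) for Cd96. Capitals mark the match of a searched motif.
Tigit: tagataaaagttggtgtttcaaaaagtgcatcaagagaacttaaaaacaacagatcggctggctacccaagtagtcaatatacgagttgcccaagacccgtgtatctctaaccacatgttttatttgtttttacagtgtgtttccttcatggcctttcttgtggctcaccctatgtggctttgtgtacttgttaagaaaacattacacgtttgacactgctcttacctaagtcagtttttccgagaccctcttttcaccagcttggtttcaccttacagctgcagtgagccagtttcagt
Btla: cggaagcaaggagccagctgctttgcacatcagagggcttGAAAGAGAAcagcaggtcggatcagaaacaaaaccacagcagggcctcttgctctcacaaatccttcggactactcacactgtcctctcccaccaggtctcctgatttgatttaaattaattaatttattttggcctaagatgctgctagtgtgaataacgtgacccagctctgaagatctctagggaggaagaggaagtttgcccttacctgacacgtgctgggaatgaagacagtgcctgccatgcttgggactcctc
Cd96: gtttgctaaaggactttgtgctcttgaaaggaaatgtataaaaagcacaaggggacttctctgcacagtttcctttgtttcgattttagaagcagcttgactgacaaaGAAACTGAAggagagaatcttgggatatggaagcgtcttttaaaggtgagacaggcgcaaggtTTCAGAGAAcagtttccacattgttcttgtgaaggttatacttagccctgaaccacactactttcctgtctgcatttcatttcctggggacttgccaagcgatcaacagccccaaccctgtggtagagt
Both strands were searched for the STAT motif TTCNNNGAA, the interferon response core GAAANNGAA, the AP-1 motif TGANTCA and the T-box motif GGTGTGA, and no match overlapped another. The Cd96 window held the STAT motif as TTCAGAGAA, 79 bases before the start, and the interferon response core as GAAACTGAA, 142 bases before it. The Btla window held that core as GAAAGAGAA, 210 bases before the start, and the Tigit window held no match to these letters. The core was shortened after a longer form, which asks for a further A at its end, gave no match in these windows. Among 32544 mouse promoters of the same length, 8.33% held the STAT motif, 8.53% the interferon response core, 7.79% the AP-1 motif and 3.95% the T-box motif. A match describes letters and not a bound site.

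In the IgG libraries the receptors covered a wide range of transcript levels. Levels of different genes were compared per kilobase of GENCODE exon (CPM, read counts scaled to library size by TMM). Tigit was highest at 29.6 CPM per kb, followed by Cd96 at 23.5, Btla at 20.7 and Lag3 at 17.1 CPM per kb. Havcr2 stood at 9.47, Cd226 at 7.84, Cd200r1 at 3.93, Pdcd1 at 3.12 and Ctla4 at 1.34 CPM per kb. Among 13715 tested genes with an annotated exon length, these levels ran from the percentile 23.7 for Ctla4 to the percentile 87.9 for Tigit. The rank of Tigit rests on a GENCODE exon length of 0.919 kb. Its RefSeq span is wider than its GENCODE span (chr16:43648867-43664146), and the annotation used for counting is not given. Without division by length, the IgG means were 70.1 CPM for Btla, 51.4 for Cd96, 38.3 for Cd226, 36.1 for Lag3 and 27.2 for Tigit. The NK receptor Ncr1 (NKp46) reached 272 and Klrb1c (NK1.1) 192 CPM per kb, so NK cell transcripts were abundant, as the label of the cells says. Markers of other cell types were present too, with Cd3e of the T cell receptor complex at 11.1 CPM per kb. In such bulk samples fewer cells of a type and less RNA per cell cannot be told apart.

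Tigit, an inhibitory receptor of T and NK cells for PVR and nectin-2, was lower in both groups that received anti-IL-35. In the order of replicates it measured 27.1, 25.3 and 29.1 CPM with IgG, 26.8, 23.5 and 25.9 CPM with cGAMP, 22.4, 20.8 and 20.6 CPM after anti-IL-35 and 23.5, 16.9 and 20.2 CPM after the combination. Each anti-IL-35 library lay below every IgG and cGAMP library, and the combination libraries lay below every IgG library. Against IgG, the log2 fold change was -0.35 ± 0.12 (SE; edgeR quasi-likelihood adjusted p = 0.0266) after anti-IL-35 and -0.43 ± 0.12 (adjusted p = 0.00725) after the combination. With cGAMP alone it was -0.10 ± 0.12, with a 95% interval of -0.35 to 0.15. The anti-IL-35 call was lost on leaving out IgG replicate 1 (edgeR adjusted p = 0.0679) or 3 (0.136) or anti-IL-35 replicate 2 (0.0806) or 3 (0.0653). The combination call was lost without IgG replicate 3 (0.0558) or combination replicate 2 (0.086), and with scaling on 9 NK receptor transcripts (0.0676).

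Cd96, whose protein binds PVR and is described as inhibitory on mouse NK cells, was lower after the combination. The replicates stood at 50.9, 52.3 and 50.9 CPM with IgG, 54.9, 51.1 and 54.0 CPM with cGAMP, 50.4, 43.8 and 47.3 CPM after anti-IL-35 and 41.9, 42.9 and 37.4 CPM after the combination. The combination libraries were the lowest of the 12, below every anti-IL-35 library, and the anti-IL-35 libraries lay just below the IgG range. The combination differed from IgG by -0.34 ± 0.09 (edgeR adjusted p = 0.00287) and from cGAMP by -0.39 ± 0.09 (adjusted p = 0.000835) on the log2 scale. Anti-IL-35 alone gave -0.12 ± 0.09 against IgG (95% interval -0.30 to 0.05), and the combination gave -0.21 ± 0.09 against anti-IL-35 (adjusted p = 0.181), neither of which was called. With NK receptor scaling both combination calls were lost (edgeR adjusted p = 0.0879 against IgG and 0.266 against cGAMP).

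Cd226, the activating receptor (gene 225825, chromosome 18, 89176954 to 89272232), was the member that rose with cGAMP. It measured 36.7, 42.6 and 35.7 CPM with IgG and 46.7, 53.6 and 45.6 CPM with cGAMP. With anti-IL-35 it measured 37.6, 33.2 and 33.6 CPM and after the combination 41.3, 31.3 and 38.0 CPM. The cGAMP libraries were the 3 highest of the 12 and the other groups overlapped each other. The log2 fold change of cGAMP against IgG was 0.34 ± 0.10 (edgeR adjusted p = 0.0179), a 1.27-fold higher level, and the combination differed from cGAMP by -0.40 ± 0.10 (adjusted p = 0.00392). The combination did not differ detectably from IgG (-0.06 ± 0.10, 95% interval -0.27 to 0.15). The cGAMP call was lost with library totals alone (edgeR adjusted p = 0.141), with NK receptor scaling (0.196), and without IgG replicate 1 (0.0991), IgG replicate 3 (0.126) or cGAMP replicate 2 (0.153). The call of the combination against cGAMP was lost with NK receptor scaling (0.297) and without cGAMP replicate 2 (0.0555) or combination replicate 2 (0.0762).

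**Figure D1:**
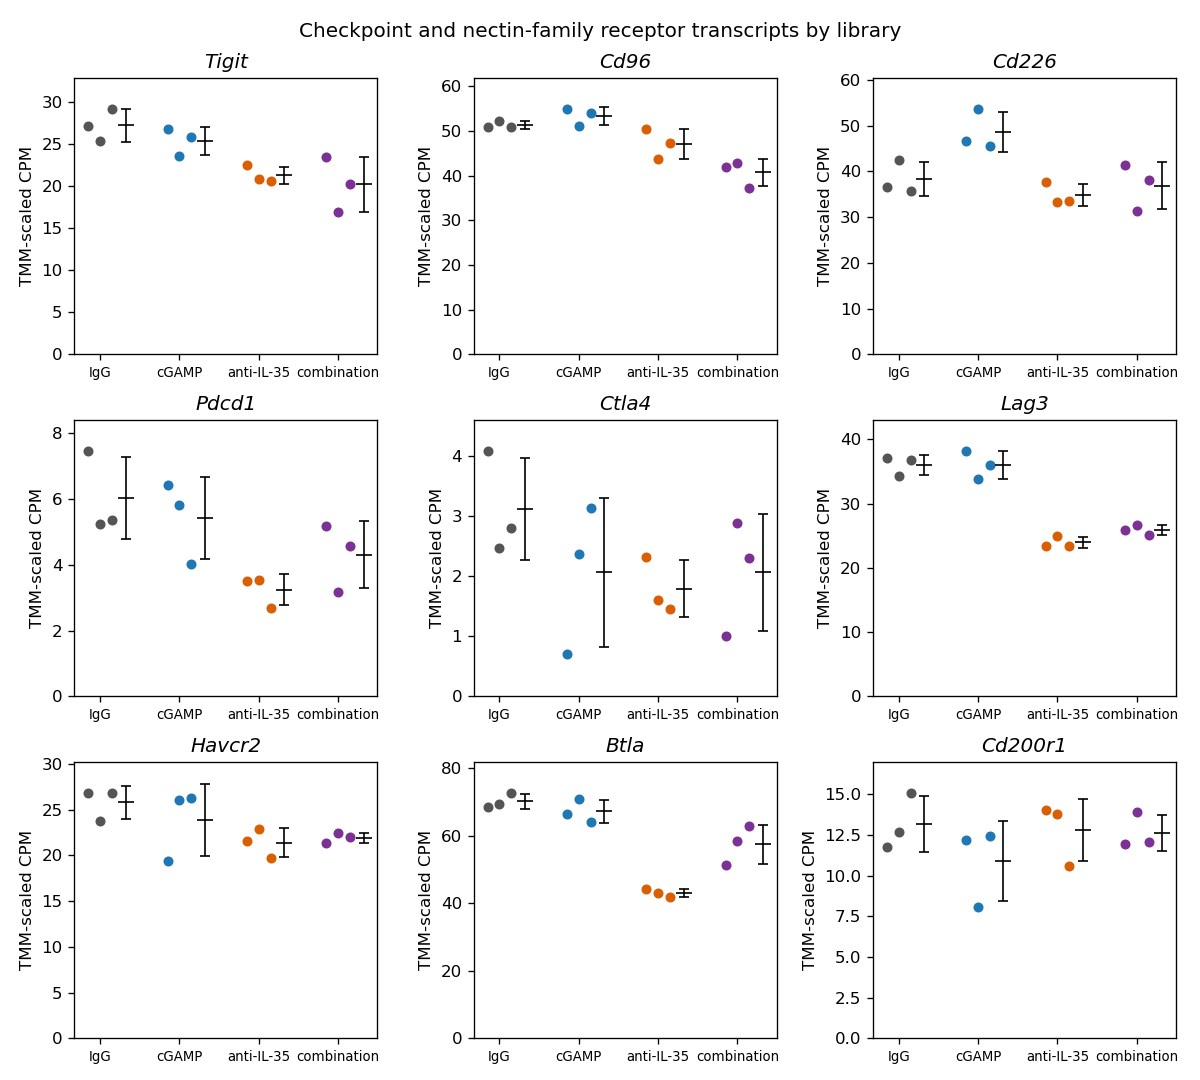
Level of each of the 9 measured receptors in every library (TMM-scaled CPM, linear axis from 0 in each panel), with points for the 3 libraries of a group and a bar at the group mean ± SD. Btla and Lag3 are lower in the anti-IL-35 and combination libraries than in every IgG library, and Cd226 is highest in the 3 cGAMP libraries.

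Because the nectin-binding receptors compete for ligands, their transcripts were also set against each other as ratios of counts within a library, which no scaling between libraries affects. These ratios are descriptions, with no test. Tigit per Cd226 was 0.717 ± 0.113 (SD, n = 3) with IgG, 0.526 ± 0.0759 with cGAMP, 0.612 ± 0.0143 after anti-IL-35 and 0.547 ± 0.0195 after the combination. The cGAMP and combination libraries lay at or below 0.573, and every IgG and anti-IL-35 library at or above 0.594. Cd96 per Cd226 showed the same split less cleanly, with 1.35 ± 0.105 for IgG and 1.36 ± 0.0466 for anti-IL-35 against 1.10 ± 0.132 for cGAMP and 1.12 ± 0.216 for the combination. Combination replicate 2, at 1.37, was in the range of the IgG libraries. Tigit per Cd96 was 0.530 ± 0.0445, 0.476 ± 0.0135, 0.452 ± 0.0205 and 0.498 ± 0.0903 in the order IgG, cGAMP, anti-IL-35 and combination. The IgG libraries lay above the anti-IL-35 libraries in this ratio, and the combination libraries spanned both.

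**Figure D2:**
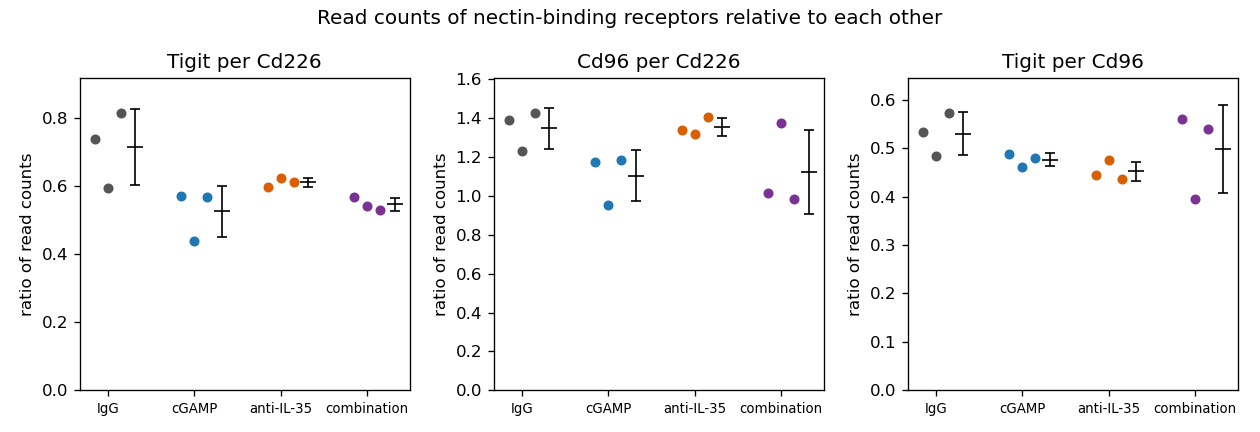
Ratios of read counts within each library for Tigit per Cd226, Cd96 per Cd226 and Tigit per Cd96 (no unit, linear axes from 0), with points for libraries and bars for the group mean ± SD, n = 3. Tigit per Cd226 is lower in the cGAMP and combination libraries (0.439 to 0.573) than in the IgG and anti-IL-35 libraries (0.594 to 0.816).

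Lag3, whose product binds MHC class II and other ligands (gene 16768, chromosome 6, 124904359 to 124912434), was lower in both groups given anti-IL-35 and was level with IgG after cGAMP. Its levels were 37.1, 34.3 and 36.8 CPM with IgG and 38.2, 33.9 and 36.0 CPM with cGAMP, but 23.5, 25.0 and 23.5 CPM after anti-IL-35 and 25.9, 26.7 and 25.1 CPM after the combination. The 6 libraries after anti-IL-35 lay below the 6 without it by a wide gap, and the combination libraries were each slightly above every library of anti-IL-35 alone. Lag3 fell by 0.59 ± 0.10 (edgeR adjusted p = 9.32e-06) after anti-IL-35 and by 0.48 ± 0.10 (adjusted p = 0.000297) after the combination against IgG on the log2 scale. It fell by 0.48 ± 0.10 (adjusted p = 0.000537) in the combination against cGAMP. The difference of cGAMP from IgG had a 95% interval of -0.21 to 0.20, and that of the combination from anti-IL-35 one of -0.10 to 0.32. NK receptor scaling ended the call against cGAMP (edgeR adjusted p = 0.101). Relative to the median of all genes the difference was -0.47 under TMM and under that scaling. A change of scaling shifts all genes nearly alike, so this likeness was fixed in advance and tests nothing.

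Havcr2, the TIM-3 receptor for galectin-9 and CEACAM1 (gene 171285, chromosome 11, 46454931 to 46481255), was not called in any of the 6 comparisons. It measured 26.8, 23.7 and 26.8 CPM with IgG, 19.3, 26.0 and 26.3 CPM with cGAMP, 21.5, 22.9 and 19.7 CPM after anti-IL-35 and 21.3, 22.4 and 22.0 CPM after the combination. The anti-IL-35 and combination libraries lay below every IgG library, while cGAMP replicate 1 was the lowest of all 12 and the other cGAMP libraries were in the IgG range. The log2 difference from IgG was -0.27 ± 0.12 (edgeR adjusted p = 0.109) after anti-IL-35 and -0.23 ± 0.12 (adjusted p = 0.186) after the combination. With library totals alone both were called (edgeR adjusted p = 0.0101 and 0.0125).

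Pdcd1, the receptor for PD-L1 and PD-L2 (gene 18566, chromosome 1, 94038305 to 94052553), was among the low members and fell after anti-IL-35. The IgG libraries held 7.46, 5.25 and 5.37 CPM, the cGAMP libraries 6.42, 5.82 and 4.02 CPM, the anti-IL-35 libraries 3.49, 3.53 and 2.7 CPM and the combination libraries 5.17, 3.18 and 4.57 CPM. The anti-IL-35 libraries lay below every IgG and cGAMP library, and the combination libraries lay below the IgG libraries by a narrow margin. Pdcd1 fell by 0.89 ± 0.27 on the log2 scale after anti-IL-35 (edgeR adjusted p = 0.0118), to 0.540 of the IgG level. The combination differed from IgG by -0.48 ± 0.27 (adjusted p = 0.214, 95% interval -1.03 to 0.06). The call after anti-IL-35 was lost without IgG replicate 1 (edgeR adjusted p = 0.113) or anti-IL-35 replicate 3 (0.0558).

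Ctla4, which competes with CD28 for CD80 and CD86 (gene 12477, chromosome 1, 60909025 to 60915832), was the lowest member. Its reads numbered 63, 42 and 49 with IgG, 9, 35 and 60 with cGAMP, 44, 35 and 28 after anti-IL-35 and 17, 52 and 46 after the combination. The mean levels were 3.12 ± 0.852 (SD, n = 3), 2.07 ± 1.24, 1.80 ± 0.468 and 2.07 ± 0.972 CPM in that order. The cGAMP and combination libraries spread widely around the other groups, and the anti-IL-35 libraries lay below the IgG libraries. No comparison was called. The difference of anti-IL-35 from IgG was -0.79 ± 0.44 on the log2 scale with a 95% interval of -1.69 to 0.10, and no change of Ctla4 was detectable at this depth. The annotated span of Ctla4 overlaps the pseudogene Rpl18-ps1, with no shared exon.

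Btla, an inhibitory receptor that binds HVEM (the product of Tnfrsf14), showed the lowest p of the members. It measured 68.4, 69.4 and 72.6 CPM with IgG, 66.5, 71.0 and 64.0 CPM with cGAMP, 44.3, 43.0 and 41.9 CPM after anti-IL-35 and 51.4, 58.4 and 62.7 CPM after the combination. The anti-IL-35 libraries were the lowest 3 of the 12, the combination libraries lay between them and the others without overlap, and IgG and cGAMP overlapped. Btla fell by 0.70 ± 0.08 (edgeR adjusted p = 7.34e-10) after anti-IL-35 and by 0.29 ± 0.08 (adjusted p = 0.00612) after the combination against IgG on the log2 scale. It was higher by 0.42 ± 0.08 (adjusted p = 0.000295) in the combination than after anti-IL-35 alone. It was the 1 of 9 members called for the interaction of cGAMP and the antibody (0.48 ± 0.11, edgeR adjusted p = 0.00233). That share is near the 10.4% of all genes called for this term. With cGAMP alone Btla gave -0.06 ± 0.08 against IgG. The fall against IgG in the combination was lost with NK receptor scaling (edgeR adjusted p = 0.181) and without combination replicate 1 (0.08). The fall after anti-IL-35 and the interaction kept their calls under every alternative run for them.

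Cd200r1, the receptor for CD200, gave no call under TMM scaling. It measured 11.7, 12.7 and 15.1 CPM with IgG, 12.2, 8.05 and 12.4 CPM with cGAMP, 14, 13.8 and 10.6 CPM after anti-IL-35 and 11.9, 13.9 and 12.1 CPM after the combination. The 4 groups overlapped, and cGAMP replicate 2 was the lowest library. Reads of Cd200r1 are uncertain where they match its close paralogs. The difference of anti-IL-35 from IgG was -0.04 ± 0.17 (95% interval -0.39 to 0.30) and that of the combination -0.06 ± 0.17 (-0.41 to 0.29) on the log2 scale.

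**Figure D3:**
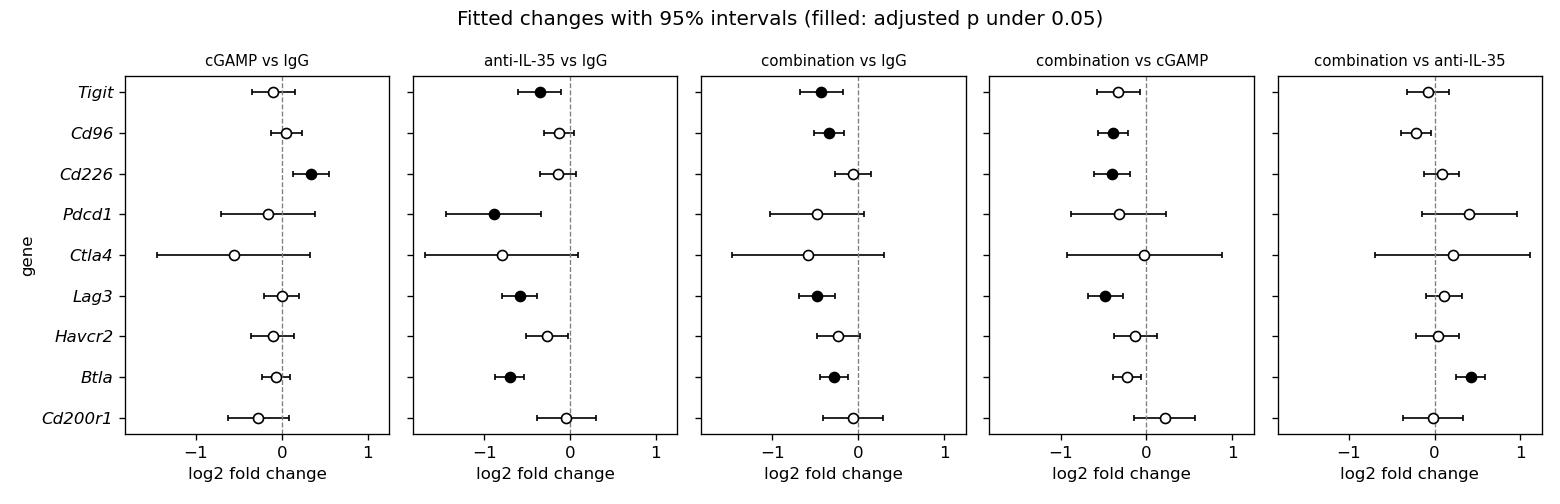
Log2 fold change of each receptor in each comparison, with bars for the 95% interval and filled symbols for an adjusted p under 0.05 (edgeR quasi-likelihood test, Benjamini-Hochberg over 14182 genes). The called changes against IgG are lower after anti-IL-35 (Btla, Lag3, Pdcd1, Tigit) and after the combination (Lag3, Cd96, Tigit, Btla), and higher with cGAMP (Cd226).

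Read by comparison, cGAMP alone changed 1 of the 9 receptors, Cd226, which was higher. Over all 14182 genes, 12.9% were called in this comparison, 9.37% higher and 3.56% lower, so that share of the receptors is near the background. The median log2 fold change of the receptors was -0.10, beside 0.02 over all genes.

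Blocking IL-35 alone was followed by lower levels of 4 of the 9 receptors, Btla, Lag3, Pdcd1 and Tigit, and a higher level of none. In this comparison 25.0% of all genes were called, 15.7% higher and 9.32% lower. The receptors' median was -0.35, beside -0.02 over all genes. With library totals alone 7 receptors were called lower, where 22% of all genes were lower, the added ones being Havcr2 (edgeR adjusted p = 0.0101), Cd96 (0.0202) and Cd226 (0.0414).

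The combination also had 4 receptors lower than IgG, Lag3, Cd96, Tigit and Btla, and none higher, where 23.2% of all genes were called, 15.7% higher and 7.50% lower. Their median was -0.34, beside -0.02 over all genes. The anti-IL-35 and combination comparisons share the IgG libraries, so their likeness is not independent evidence. Pdcd1 stood at -0.89 after anti-IL-35 and -0.48 after the combination, and Cd96 at -0.12 and -0.34, on the log2 scale against IgG. Neither of these gaps passed the test of the combination against anti-IL-35 (edgeR adjusted p = 0.509 for Pdcd1 and 0.181 for Cd96).

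Adding the antibody to cGAMP, which the combination against cGAMP measures, lowered 3 receptors, Lag3, Cd96 and Cd226, with a median of -0.32 over the 9 beside -0.00 over all genes. Of all genes 14.8% were called there, 9.99% higher and 4.83% lower. Tigit (-0.33 ± 0.12, edgeR adjusted p = 0.0671) and Btla (-0.22 ± 0.08, 0.0565) missed the threshold, and both were called with library totals alone (0.0318 and 0.0176) and with DESeq2 (0.0495 and 0.0344). Btla was also called with RLE size factors (edgeR adjusted p = 0.0455). Under NK receptor scaling the count was 1, Cd200r1, which was then higher (edgeR adjusted p = 0.0302). Under that scaling 37.6% of all genes were called higher and 0.797% lower. Leaving out a library gave 2 to 4 calls. Btla was called when anti-IL-35 replicate 1 (0.0473), anti-IL-35 replicate 3 (0.0404) or combination replicate 3 (0.0209) was left out, and Tigit without combination replicate 1 (0.0198).

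Adding cGAMP to the antibody, measured by the combination against anti-IL-35, raised Btla alone among the 9 receptors, where 5.85% of all genes were called, 3.67% higher and 2.17% lower. The receptors' median was 0.08. The interaction of both treatments was likewise called for Btla alone, beside 10.4% of all genes, 3.62% with a positive and 6.78% with a negative term. A count of 1 among the 9 receptors is near that background. For Cd96 the interaction was -0.27 ± 0.12 (edgeR adjusted p = 0.201) and for Cd226 it was -0.26 ± 0.15 (0.323), neither of them called. NK receptor scaling added an interaction for Lag3 (0.0422).

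A test of any difference among the 4 groups called 6 receptors, Btla (edgeR adjusted p = 1.54e-09), Lag3 (8.48e-07), Cd226 (0.000686), Cd96 (0.00166), Tigit (0.0114) and Pdcd1 (0.0431), beside 30.9% of all genes. Havcr2 (0.248), Ctla4 (0.458) and Cd200r1 (0.578) were not called, and Havcr2 was with library totals alone (0.0201). The Pdcd1 call was lost in 8 of the 12 fits that left out a library (adjusted p = 0.0555 to 0.172 in these), the Tigit call without IgG replicate 3 (0.0613) and the Cd96 call under NK receptor scaling (0.188).

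Scaling set the balance of all calls. The share of calls that were higher against IgG was 72.5% for cGAMP, 62.7% after the antibody and 67.6% after both under TMM, 32%, 32% and 28.8% with library totals alone, and 27.9%, 53.4% and 90.6% with NK receptor scaling. For the combination against cGAMP it was 67.4%, 53.0% and 97.9%, against anti-IL-35 62.8%, 50.3% and 96.6%, and for the interaction 34.8%, 56.5% and 92.5% under the same 3 scalings. Library totals alone moved the median log2 fold change of all genes to -0.09, -0.15 and -0.17 against IgG. NK receptor scaling moved it to -0.11, -0.06 and 0.11 against IgG, to 0.25 against cGAMP, to 0.16 against anti-IL-35 and to 0.28 for the interaction.

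Markers of other cells moved with the receptors. For scale, 9.32% of all genes were called lower than with IgG after anti-IL-35, 7.50% after the combination and 3.56% with cGAMP. Of 14 T cell markers, 11 were lower after anti-IL-35 and 12 after the combination (edgeR, median log2 fold change -0.42 and -0.38), and 2 with cGAMP, beside the falls of Lag3, Pdcd1 and Tigit. Their summed level was 711 to 724 CPM with IgG, 680 to 689 with cGAMP, 532 to 554 after anti-IL-35 and 552 to 571 after the combination. Markers of regulatory T cells summed to 47.3 to 50.1 CPM with IgG, 45.5 to 49.4 with cGAMP, 29.7 to 35.4 after anti-IL-35 and 33.7 to 39.9 after the combination, with 2 and 1 of 5 called lower in the last 2 groups. These were Il2ra and Ikzf2 after anti-IL-35 and Ikzf2 after the combination. Foxp3 was called in neither (edgeR adjusted p = 0.0608 and 0.907). None of the markers was at 0 in all libraries. Per Cd3e count, Lag3 was 0.801 ± 0.0576 (SD, n = 3), 0.783 ± 0.0721, 0.699 ± 0.0371 and 0.687 ± 0.0399 in the order IgG, cGAMP, anti-IL-35 and combination. In this ratio anti-IL-35 replicate 2 (0.742) lay above IgG replicate 1 (0.736), and the combination libraries lay just below the IgG libraries. The value of cGAMP replicate 3 (0.699) lay within the range of both antibody groups. Pdcd1 per Cd3e was 0.132 ± 0.0135, 0.119 ± 0.0358, 0.0947 ± 0.0151 and 0.115 ± 0.0338. Tigit per Cd3e was 0.605 ± 0.0657, 0.551 ± 0.0418, 0.621 ± 0.0329 and 0.540 ± 0.121. As a percentage of the summed counts of the 14 T cell markers, Lag3 was 5.03 ± 0.260%, 5.26 ± 0.298%, 4.40 ± 0.165% and 4.59 ± 0.0791%, and the libraries of both antibody groups lay below every IgG and cGAMP library. Tigit was 3.8 ± 0.301%, 3.71 ± 0.238%, 3.90 ± 0.133% and 3.58 ± 0.579% of that sum, with overlap between the groups. Pdcd1 was 0.842 ± 0.176%, 0.791 ± 0.178%, 0.594 ± 0.0755% and 0.764 ± 0.183% of it, and the anti-IL-35 libraries lay below the IgG libraries. The part of T cell RNA in the receptors' falls was not tested. The ratios to markers of a cell type were chosen after values were seen, and they depend on the marker taken.

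Btla moved in the same direction as markers of B cells, and as those of several other cell types. For scale, 9.32% of all genes were lower and 15.7% higher after anti-IL-35 than with IgG. In the combination against anti-IL-35 3.67% were higher, and 3.62% had a positive interaction. Of 12 B cell markers, 11 were lower after anti-IL-35 than with IgG (median -0.71), 11 were higher in the combination than after anti-IL-35 (median 0.54) and 11 had a positive interaction (median 0.58), where Btla gave -0.70, 0.42 and 0.48. Their sum was 8917 to 9018 CPM with IgG, 9820 to 9957 with cGAMP, 3185 to 3270 after anti-IL-35 and 9719 to 9946 after the combination, most of it Ighm, the constant region of IgM. Without Ighm, a sum added after values were seen, the other 11 came to 1282 to 1310 CPM with IgG, 1201 to 1246 with cGAMP, 739 to 768 after anti-IL-35 and 1080 to 1116 after the combination. Counts of Btla per count of Ms4a1 (CD20) were 0.411 ± 0.0170 (SD, n = 3) with IgG, 0.382 ± 0.0281 with cGAMP, 0.473 ± 0.0379 after anti-IL-35 and 0.411 ± 0.0180 after the combination. That ratio turns on the marker taken, as the 12 B cell markers changed by between -1.63 (Ighm) and -0.35 (Ebf1) after anti-IL-35. As a percentage of the summed counts of the 11 markers without Ighm, Btla was 5.43 ± 0.204%, 5.49 ± 0.326%, 5.70 ± 0.144% and 5.22 ± 0.463% in the order IgG, cGAMP, anti-IL-35 and combination, with overlap between IgG and each treated group. Macrophage and monocyte markers were lower in 9 of 12 cases and higher in 1 after anti-IL-35 (median -0.41), and higher in 7 in the combination against anti-IL-35 (median 0.26). Dendritic cell markers were lower in 5 of 12 cases (median -0.54) and higher in 5 (median 0.28), and plasma cell markers lower in 3 and higher in 1 of 4 (median -0.67) and higher in 4 (median 0.73), in the same pair of comparisons. The 5 dendritic cell markers called lower after anti-IL-35 were H2-Ab1, H2-Eb1, Cd74, Ciita and Ccr7. Flt3, Zbtb46, Itgax, Xcr1, Clec9a, Siglech and Batf3 were not called there. Macrophage and monocyte markers summed to 3874 to 3911 CPM with IgG, 3900 to 3997 with cGAMP, 3216 to 3257 after anti-IL-35 and 3690 to 3724 after the combination. Dendritic cell markers summed to 6641 to 6797, 5637 to 5672, 4571 to 4870 and 5587 to 5825 CPM in that order. Plasma cell markers summed to 1741 to 1746, 1612 to 1666, 1041 to 1175 and 1679 to 1801 CPM. The part of B cell, plasma cell or myeloid RNA in the change of Btla was not tested.

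NK cell markers moved beside Cd96 and Cd226. For scale, 9.37% of all genes were higher with cGAMP than with IgG, and 15.7% higher and 9.32% lower after anti-IL-35. In the combination 7.50% were lower than with IgG and 4.83% lower than with cGAMP. Of 11 NK markers, 7 were higher with cGAMP than with IgG (median 0.15), 2 were higher and 2 lower after anti-IL-35 (median 0.08), 6 were lower in the combination than with IgG (median -0.17) and 10 lower than with cGAMP (median -0.31). They summed to 6468 to 6529 CPM with IgG, 7056 to 7265 with cGAMP, 6461 to 6851 after anti-IL-35 and 6035 to 6174 after the combination. Cd96 per Ncr1 count was 0.123 ± 0.00548 (SD, n = 3), 0.125 ± 0.00952, 0.123 ± 0.00798 and 0.118 ± 0.0108 in the same order of groups, and these overlapped. Cd226 per Ncr1 was 0.0918 ± 0.0111, 0.114 ± 0.0124, 0.0904 ± 0.00401 and 0.107 ± 0.0150, again with overlap between cGAMP and IgG. Ncr1 was itself called lower than with IgG after anti-IL-35 (-0.12, edgeR adjusted p = 0.0425) and after the combination (-0.27, adjusted p = 3.34e-06). Other denominators gave another picture. As a percentage of the summed counts of the 11 NK markers, Cd96 was 0.791 ± 0.0142% with IgG, 0.744 ± 0.0344% with cGAMP, 0.707 ± 0.0467% after anti-IL-35 and 0.670 ± 0.0564% after the combination. Here every IgG library lay above all libraries of the treated groups, by a narrow margin over cGAMP. Cd226 was 0.590 ± 0.0579%, 0.678 ± 0.0608%, 0.522 ± 0.0265% and 0.605 ± 0.0826% of that sum, and cGAMP overlapped IgG. The part of the NK cell share in these changes was not tested. The 12 neutrophil markers were higher in each treated group than with IgG, with sums of 4226 to 4384 CPM with IgG, 10080 to 10263 with cGAMP, 18192 to 19454 after anti-IL-35 and 17053 to 17201 after the combination. Mitochondrial transcripts took 6.10 ± 0.107%, 8.19 ± 0.460%, 5.86 ± 0.397% and 6.44 ± 0.378% of counts (SD, n = 3) in the order IgG, cGAMP, anti-IL-35 and combination. The part of depth, neutrophil RNA and RNA quality in the receptors' changes was not tested either.

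**Figure D4:**
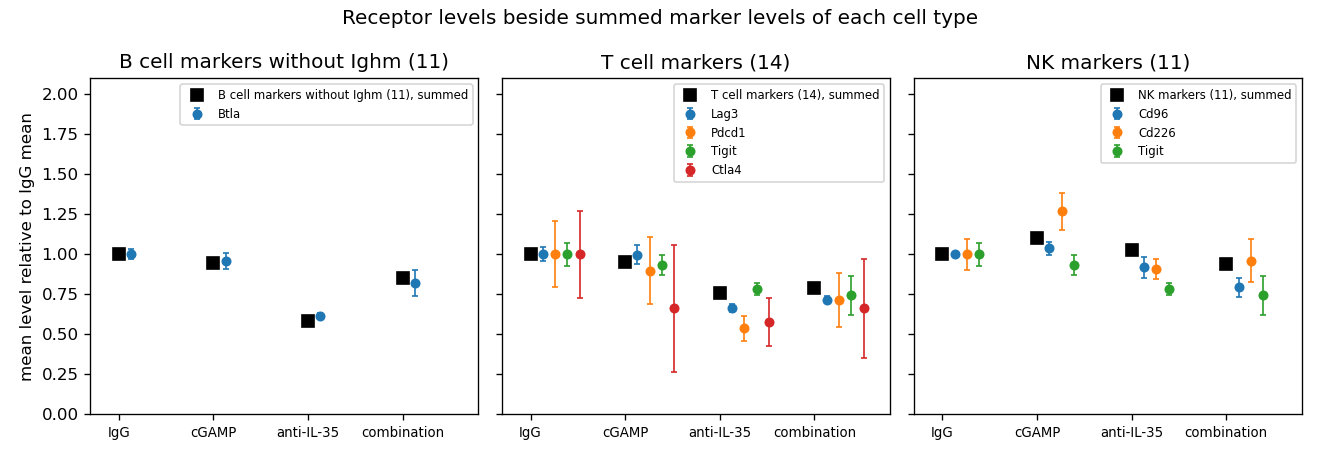
Mean level relative to the IgG mean (linear axis) for the sum of each marker list (black squares) and for the receptors beside it (points, with bars for the SD over 3 libraries relative to the IgG mean). Btla and the sum of 11 B cell markers are both lowest after anti-IL-35, the T cell sum is lower in both antibody groups with Lag3, Pdcd1 and Tigit, and Cd226 is highest with cGAMP, where the NK marker sum is highest too.

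Ligands of the receptors were measured in the same libraries, and the cells that gave this RNA were not determined. Among all genes, 15.7% rose and 9.32% fell after anti-IL-35 against IgG. With cGAMP 9.37% rose and 3.56% fell, and after the combination 15.7% rose and 7.50% fell. Of 17 ligand genes 15 were tested, and 4 rose and 5 fell after anti-IL-35 against IgG, 2 rose with cGAMP, and 3 rose and 1 fell after the combination. The largest rise after anti-IL-35 was that of Ceacam1, a ligand of TIM-3 that neutrophils also carry, from 91.2 ± 0.219 (SD, n = 3) to 165 ± 3.54 CPM (0.86 ± 0.06, edgeR adjusted p = 1.01e-15). Lgals9 (galectin-9), another TIM-3 ligand, gave 0.25 ± 0.06 (adjusted p = 0.00135). Lgals3, also on the ligand list, rose by 0.23 ± 0.06 (adjusted p = 0.00135), and by 0.33 ± 0.06 (6.54e-06) after the combination. On the nectin side, Pvr and Nectin1 were lower, and they are given here with values already seen. Pvr, the shared ligand of TIGIT, CD96 and CD226, went from 12.1 ± 2.71 to 8.33 ± 0.488 CPM (-0.53 ± 0.18, adjusted p = 0.0244), and Nectin1 gave -0.48 ± 0.14 (adjusted p = 0.00911). Cadm1, the ligand of the related receptor CRTAM, gave -0.43 ± 0.10 after anti-IL-35 and 0.39 ± 0.10 with cGAMP (adjusted p = 0.000586 and 0.00312). Cd86, the ligand of CTLA-4 and CD28, fell by 0.41 ± 0.09 (adjusted p = 0.00032) and Cd200, the ligand of CD200R1, fell by 0.76 ± 0.25 (adjusted p = 0.0203) on the log2 scale after anti-IL-35. Cd274 (PD-L1) rose slightly after anti-IL-35 (0.21 ± 0.08, adjusted p = 0.0436) and after the combination (0.22 ± 0.08, adjusted p = 0.0344). Nectin1 was higher in the combination than after anti-IL-35 (0.55 ± 0.14, adjusted p = 0.00961) and had an interaction of 0.89 ± 0.20 (adjusted p = 0.00157).

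Partners inside the cell moved in both directions. Against IgG, 15.7% of all genes rose and 9.32% fell after anti-IL-35, and 15.7% rose and 7.50% fell after the combination. Of 15 signalling partners, 6 rose and 2 fell after anti-IL-35 and 5 rose and 5 fell after the combination against IgG, with medians of -0.01 and 0.06. Ptpn6, the SHP-1 phosphatase that several of these receptors recruit, rose by 0.30 ± 0.04 (edgeR adjusted p = 9.03e-08) after anti-IL-35 and by 0.23 ± 0.04 (2.56e-05) after the combination, and Vav1, an exchange factor that SHP-1 dephosphorylates, by 0.34 ± 0.05 (5.72e-08) and 0.29 ± 0.05 (2.89e-06). Ptpn6 and Vav1 are expressed across leukocytes. Of 18 transcription factors linked to checkpoint expression or lymphocyte differentiation, 2 rose and 4 fell after anti-IL-35. Irf4 (-0.66 ± 0.10, edgeR adjusted p = 2.08e-07), Maf (-0.42 ± 0.08) and Foxo1 (-0.30 ± 0.06) fell, and Nfatc1, which can activate Pdcd1 in T cells, rose (0.24 ± 0.05, adjusted p = 8.09e-05). After the combination 1 rose and 5 fell against IgG. Eomes, a T-box factor of NK cells, was lower in the combination than after anti-IL-35 (-0.36 ± 0.05, adjusted p = 6.89e-07), with an interaction of -0.51 ± 0.07 (5.29e-07).

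Other genes linked to inhibition, listed as 13 receptors and surface enzymes (Entpd1 and Nt5e are enzymes), moved in both directions. The shares of all genes called against IgG were 15.7% higher and 9.32% lower after anti-IL-35. They were 15.7% and 7.50% after the combination, and 9.37% and 3.56% with cGAMP. Of 13 on the list, 6 rose and 2 fell after anti-IL-35 and after the combination, and 5 rose with cGAMP. The 2 that fell, in both antibody groups, were Cd5, a receptor of T cells (-0.46 ± 0.15, edgeR adjusted p = 0.0147, and -0.64 ± 0.15, 0.000647), and Cd160, a receptor for HVEM (-0.29 ± 0.08, 0.00606, and -0.31 ± 0.08, 0.00468). They are named with values already seen. Cd101 (2.14 ± 0.07, edgeR adjusted p = 3.14e-28), Entpd1 (CD39, 0.98 ± 0.05), Lilrb4a (1.09 ± 0.06) and Vsir (VISTA, 0.59 ± 0.04) led the rises after anti-IL-35, and these genes are also expressed by neutrophils or other myeloid cells. With cGAMP the NK receptors Klrg1 (0.45 ± 0.07, adjusted p = 4.75e-06) and Klrc1 (NKG2A, 0.28 ± 0.06, adjusted p = 0.000441) rose. Co-stimulatory receptors fell in 4 of 10 cases and rose in 1 after anti-IL-35, and fell in 6 after the combination. Crtam, an activating receptor of the same nectin-like binding family, gave -0.32 ± 0.12 (adjusted p = 0.0368) and -0.46 ± 0.12 (adjusted p = 0.0027), and Slamf6 gave -0.95 ± 0.18 and -0.69 ± 0.17, in these comparisons.

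Genes with the profile most like that of a receptor were ranked by Pearson's r of log2(CPM + 1) over the 12 libraries, among 10479 or 10480 genes that averaged 5 CPM or more. The libraries share groups, so r describes their pattern and carries no p. For Btla the closest were C1qb, a complement gene of macrophages (0.976), Snn (0.975) and Ms4a1 (0.966). For Lag3 they were the ribosomal protein genes Rpl12 (0.977) and Rpl22 (0.974) and Zfp160 (0.969). Ribosomal protein genes as a whole took 6.04 ± 0.0353% of counts with IgG, 5.64 ± 0.244% with cGAMP, 4.88 ± 0.175% after anti-IL-35 and 5.02 ± 0.0648% after the combination (SD, n = 3), the order of Lag3 among the groups. Cd96 was closest to Shisa5 (0.943), Nr1d2 (0.916) and Cwf19l2 (0.905), and Cd226 to Wwp1 (0.894), Ptpn4 (0.894) and Lap3 (0.878). Tigit was closest to Tbc1d16 (0.917), Kcnq5 (0.904) and Pdk1 (0.891), and Pdcd1 to the B cell gene Fcrl5 (0.923), Tomm20 (0.883) and Hmgn1 (0.877). For the uncalled receptors the closest were Brms1l (0.889), Hddc2 (0.883) and Gt(ROSA)26Sor (0.871) for Havcr2, Rnft1 (0.877), Lsm5 (0.865) and Brip1 (0.859) for Ctla4, and Ntpcr (0.856), Nfxl1 (0.855) and Rpain (0.841) for Cd200r1.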

How the data were processed

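The authors deposited raw counts of reads per gene from sorted NK cells, made on build mm10 with featureCounts, STAR 2.7.7a and SAMtools 1.15, per the submitters' processing notes. Libraries were prepared with a NEBNext Ultra kit, per the labels' protocols. The featureCounts version, annotation and strand setting are not given in the sources used here. All 12 columns were mapped to a group, and 1049 IDs without a symbol took 0.251% of counts. The labels give no molecular identifiers.

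The model was fitted with edgeR 4.0.16 in R 4.3.3 (TMM scaling, filterByExpr with a minimum count of 10, robust quasi-likelihood fit over 4 groups and 12 libraries, 8 residual degrees of freedom). The coefficient of variation that edgeR terms biological was 0.0958, among libraries that may be technical replicates. The 7 tests were the treated groups against IgG, the combination against cGAMP and against anti-IL-35, the interaction, and any difference among the 4 groups. Adjusted p-values are Benjamini-Hochberg over 14182 genes in each test, called under 0.05, and 95% intervals use the moderated degrees of freedom. The fit was tested on simulated data. Levels per kb used exon lengths of GENCODE vM21, and promoters came from RefSeq (6 of 9 members matched).

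Replicate libraries differed beyond counting noise (chi-square over degrees of freedom 3.23 to 11.3 in 12 pairs) and were each counted once. All members were named. Of other lists up to 4 called genes with the smallest p in a comparison, or all where 5 or fewer were called, could be named, and for each member the 3 genes with the largest r. Further ligands, inhibitory receptors and markers were named beyond this limit, with values already seen. Members, lists and alternatives were chosen with earlier results of these data known. Alternatives were RLE factors and DESeq2 1.42.0, library totals alone, scaling on 9 NK receptor transcripts, no filter, 1 CPM in 6 libraries, leaving out each library, a replicate block and a fit restricted to the compared groups.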

Additional observations from a re-analysis of the deposited data

Results flagged for a closer look

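The difference of Btla with cGAMP was unlike between the groups without and with anti-IL-35, by the interaction term (0.483 on the log2 scale, SE 0.11, edgeR quasi-likelihood adjusted p = 0.00233). Btla was 1 of 9 receptors called for this term, near the 10.4% of all genes. The libraries of a group may be technical replicates, so this p-value may not measure variation between animals. Without the antibody the cGAMP libraries (64.0 to 71.0 CPM) overlapped the IgG libraries (68.4 to 72.6 CPM). With it, each combination library (51.4 to 62.7 CPM) lay above each anti-IL-35 library (41.9 to 44.3 CPM). The sum of 11 B cell markers without Ighm moved in the same direction, from 755 ± 14.6 CPM with anti-IL-35 to 1100 ± 18.6 CPM with the combination (SD, n = 3), and its part in the difference was not tested.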

How the results depend on the processing

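Over the 6 comparisons, 1071 receptor values were recomputed under alternatives. Of these 1034 kept their side of the threshold, 22 lost a call, 15 gained one and 0 called values changed sign, while 36 values changed sign without a call either way. The number of receptors called with cGAMP was 1, but 0 with library totals alone and 0 with NK receptor scaling, and 0 to 1 on leaving out a library. With anti-IL-35 it was 4, but 7 with library totals alone and 2 to 4 on leaving out a library. With the combination it was 4, but 1 with NK receptor scaling. For the combination against cGAMP it was 3, but 5 with library totals alone, 5 with DESeq2 and 1 with NK receptor scaling. For the interaction it was 1, and 2 with NK receptor scaling. Beside these counts, library totals alone called 8.98% of all genes lower and 4.23% higher for cGAMP, and 22% and 10.4% for anti-IL-35. For the combination against cGAMP they called 7.5% lower and 8.45% higher, and DESeq2 5.87% and 9.97%. NK receptor scaling called 8.88% lower and 3.43% higher for cGAMP, and 2.53% and 24.4% for the combination. Its shares were 0.797% and 37.6% for the combination against cGAMP, and 1.85% and 22.8% for the interaction. NK receptor scaling raised the genes called from 2102 to 5449 for the combination against cGAMP, from 829 to 2734 against anti-IL-35 and from 1475 to 3489 for the interaction, and it shifts all other genes by construction.

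Replicate numbers follow the order of the samples and do not pair them (correlation of deviations -0.0247 to 0.038 for 18 pairs with the same number). A replicate block gave 1 receptor called with cGAMP and 4 with anti-IL-35, as without it, and 1723 and 3461 genes in all. The fit of only the groups compared was not run for the interaction and the test over all groups. Depth limits Ctla4, with 9 to 63 reads per library, most.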
